A study of Mus musculus with 12 samples.

Results

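Leukemia inhibitory factor (LIF), its receptors, the shared gp130 subunit and the STAT3 branch downstream were followed through 9 genes, Lif, Cntf, Clcf1, Lifr, Il6st, Osmr, Jak2, Stat3 and Socs3. They were chosen by name from knowledge of the pathway, with earlier results of these data known. Each symbol was matched to its Ensembl row in a table of 36131 genes. All 9 had enough counts to be tested. Poly(A)-selected RNA was sequenced from retinas of 12 wildtype C57BL/6J mice at postnatal day 18 (P18), with 4 animals in each group. Animals 1 to 4 were raised in room air and received PBS (RA-PBS). Animals 5 to 8 were placed with their nursing mothers in 75% O2 at P7, were brought back to room air at P12 according to the labels, and received PBS (O2-PBS). Animals 9 to 12 had the same oxygen exposure and received IC100, which binds the inflammasome adaptor ASC, as an antibody at 10 µg/g (O2-IC100). The treatment protocol in the labels gives intraperitoneal injections on P12, P14 and P16 for PBS and IC100 alike, whereas the methods of the study describe PBS as given into the vitreous, so a difference in route between the groups cannot be told apart from that of IC100. This schedule is the mouse model of oxygen-induced retinopathy, in which vessels are lost in oxygen and regrow abnormally in room air. No IC100-treated animal kept in room air was analysed here, and the sex of the animals was not stated.

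LIF, CNTF and cardiotrophin-like cytokine (encoded by Clcf1) are cytokines of the interleukin-6 family. They signal through gp130, encoded by Il6st, which pairs with the LIF receptor, while gp130 paired with the product of Osmr is the receptor for oncostatin M. The bound receptors activate kinases of the JAK family, which phosphorylate STAT3, and STAT3 then enters the nucleus and switches on genes that include Socs3, whose product shuts the receptor complex down again. In the injured retina LIF is known as a signal made by Müller glia that turns on STAT3, glial activation and the protective factors FGF2 and endothelin 2.

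The proximal promoters of Lif, Stat3 and Socs3 are shown, 3 of the 4 genes that rose in O2-PBS retinas. They stand at the start, the centre and the feedback end of the pathway. RefSeq promoter windows of 300 bases (250 before the start and 50 after it, build GRCm38.p6) were found for 8 of the 9 genes, and Clcf1 had no entry. The counts were made on GRCm39, so these positions were used for sequence only and were not converted. Printed 5′ to 3′ along each gene is the stretch that holds no annotated exon. The window of Osmr, the other gene that rose, is not printed because all 300 of its bases lie in annotated exons. For Lif it runs from base -250 to -12 (chr11:4257318-4257556, plus strand). For Stat3 it runs from base -250 to -1 (chr11:100939541-100939790, minus strand). For Socs3 it runs from base -250 to -86 of the RefSeq start (chr11:117969452-117969616, minus strand), a stretch that lies within an annotated Socs3 intron. Capitals mark matches to TGANTCA, the AP-1-type site, or to TTCNNNGAA, the spaced palindrome bound by STAT factors.
Lif: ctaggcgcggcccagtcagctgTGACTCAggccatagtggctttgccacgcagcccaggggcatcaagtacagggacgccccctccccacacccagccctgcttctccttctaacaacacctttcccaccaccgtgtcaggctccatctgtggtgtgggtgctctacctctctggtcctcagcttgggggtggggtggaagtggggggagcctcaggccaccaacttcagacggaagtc
Stat3: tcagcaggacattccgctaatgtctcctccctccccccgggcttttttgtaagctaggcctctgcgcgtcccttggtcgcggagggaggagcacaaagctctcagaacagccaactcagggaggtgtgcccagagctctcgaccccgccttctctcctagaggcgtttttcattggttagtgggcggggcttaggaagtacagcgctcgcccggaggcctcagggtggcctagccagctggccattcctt
Socs3: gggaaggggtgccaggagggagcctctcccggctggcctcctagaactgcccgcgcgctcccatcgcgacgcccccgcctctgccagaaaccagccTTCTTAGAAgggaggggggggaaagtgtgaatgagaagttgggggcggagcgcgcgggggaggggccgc
Lif held TGACTCA at bases -228 to -222, and Socs3 held TTCTTAGAA at bases -154 to -146. No match to either motif was found in the Stat3 window. Among the other windows, that of Cntf held TGACTCA at bases -245 to -239 and that of Osmr held TGATTCA at bases 4 to 10. The windows of Lifr, Il6st and Jak2 held neither motif. Both strands are covered because each motif is its own reverse complement, and the 2 motifs do not overlap in these windows. Of 32851 mouse windows of this length, 8.3% held TTCNNNGAA and 7.81% held TGANTCA, so such matches are common, and they describe letters and not binding.

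Library totals ranged from 14906970 to 24437916 counts. O2-IC100 animal 10 stood apart. Lens crystallin genes took 59% of its counts and rod genes 0.313%, against rod shares of 3.62% to 4.49% in the other 11 retinas. For this reason the tests were fitted without animal 10, and the fit with all 12 animals is given beside them. Crystallins also took 1.25%, 4.5% and 1.44% of the counts in RA-PBS animals 2, 3 and 4, and at most 0.0158% in the other 8 retinas. RA-PBS animal 4 had a summed level of 5 myelin and Schwann cell markers of 4260 normalized CPM (counts scaled to effective library size), against 46.4 to 67.2 in the others except animal 10 (674). The Y-linked genes summed to between 223 and 324 CPM in animals 1, 2, 3, 8, 9, 11 and 12 and to between 4.04 and 9.85 CPM in animals 4, 5, 6, 7 and 10. Low levels were thus found in 1 RA-PBS, 3 O2-PBS and 1 O2-IC100 retina, the last being animal 10. Among the 11 animals no O2-IC100 retina had low Y-linked levels, so the sexes were not balanced between the groups, and the Y-linked level was used as a covariate in 1 of the alternatives.

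After hyperoxia 4 of the 9 genes rose, namely Lif, Osmr, Stat3 and Socs3, and none fell (O2-PBS against RA-PBS, 11 animals). A gene was counted as changed when its fold change was at least 1.5, its p-value under 0.05 and its Benjamini-Hochberg adjusted p-value under 0.1 in the edgeR quasi-likelihood test. By these thresholds 4.09% of the 16688 tested genes rose and 2.18% fell. In the same 4 members every O2-PBS retina lay above every RA-PBS retina, which held for 7.8% of the tested genes. The median log2 fold change of the 9 genes was 0.47, beside -0.007 over all tested genes. Because the 9 genes were chosen with earlier results known, these shares and medians are a description and not a test of the set. With all 12 animals only Stat3 passed in edgeR, against 0.782% of tested genes that rose. In that fit the 4 log2 fold changes moved by under 0.05, but their standard errors were larger, at 0.85 in place of 0.37 for Osmr. These errors draw on a spread that is estimated over all groups together.

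Between O2-IC100 and O2-PBS retinas only Stat3 passed the thresholds, and it was lower with IC100. Of all tested genes 0.947% passed, 0.216% higher and 0.731% lower. Lif, Lifr, Il6st, Osmr, Stat3 and Socs3 were lower in each of the 3 O2-IC100 retinas than in each of the 4 O2-PBS retinas, and 17.3% of tested genes had this order. For Osmr the nearest values, in O2-IC100 animal 12 and O2-PBS animal 6, were both 15.5 CPM after rounding. For Lif they were 0.912 CPM in O2-IC100 animal 11 and 0.938 CPM in O2-PBS animal 6. With animal 10 included 3 of the members kept the order (Lif, Lifr and Stat3, against 10.7% of genes). In that fit no gene of the whole table passed the thresholds in edgeR (0%), where 2784 had an unadjusted p under 0.05. DESeq2 on all 12 animals called 125 genes, Lif among them. The median log2 fold change was -0.59 over the members and 0.004 over all genes. None of the 9 genes passed between O2-IC100 and RA-PBS in edgeR, DESeq2 or limma voom, and none had an unadjusted p under 0.05 in edgeR with 11 animals, where 2 did with all 12 (Cntf and Osmr). Of all tested genes 1.56% passed with 11 animals in either direction (0.947% higher, and 0% in either direction with all 12 animals). The groups overlapped for each of the 9 genes, while 10.7% of all tested genes had groups without overlap. Both comparisons with O2-PBS rest on the same 4 O2-PBS animals, so a high O2-PBS retina moves them in opposite directions at once.

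**Figure D1:**
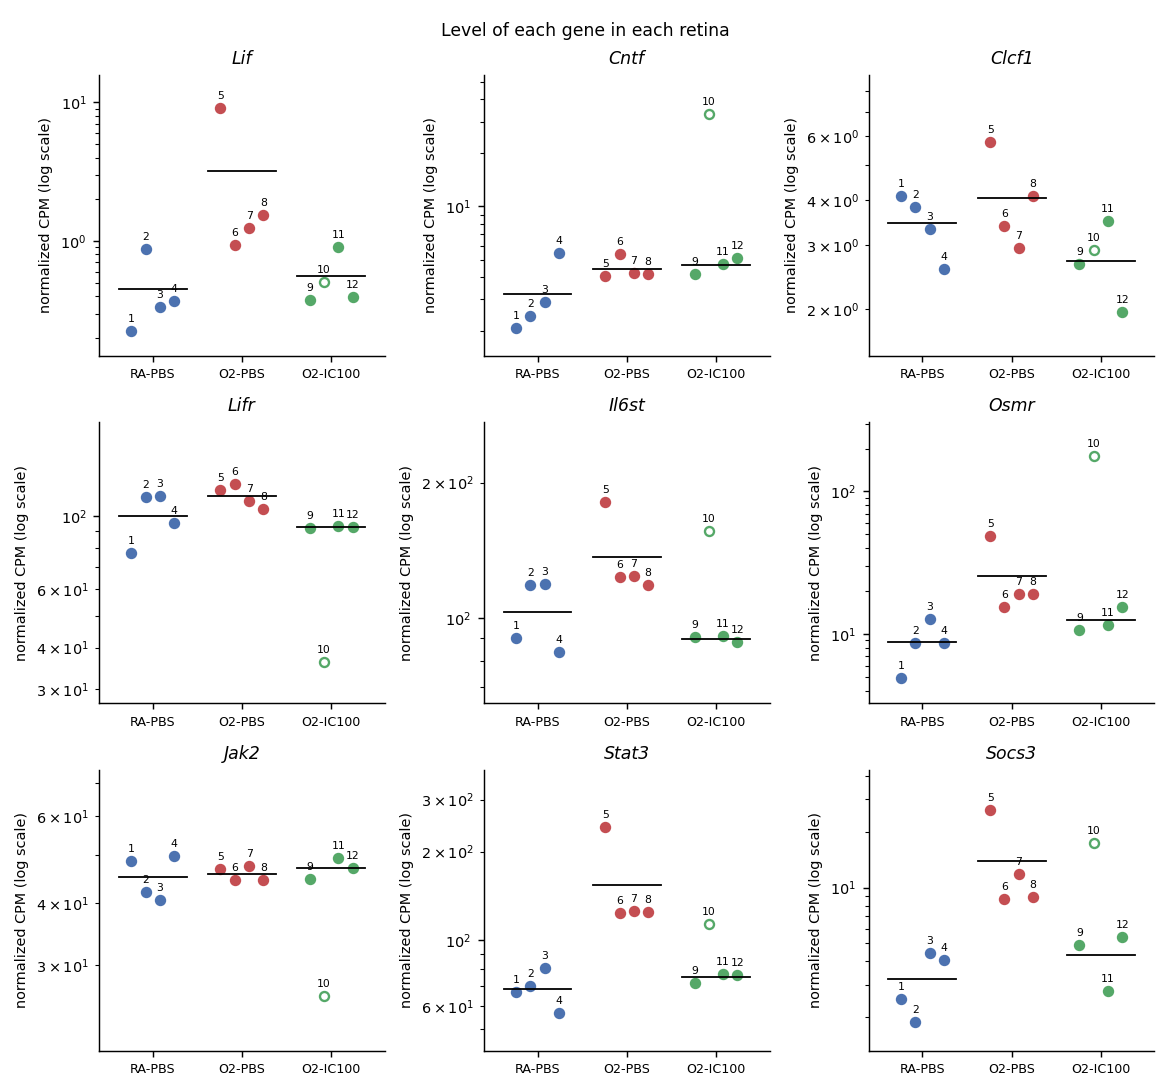
Normalized CPM (log axis) of the 9 genes in each retina, numbered by animal, with RA-PBS in blue, O2-PBS in red and O2-IC100 in green. Black lines are group means without animal 10, which is drawn open. Stat3 in the 4 O2-PBS retinas lay between 124 and 243, above all other retinas including animal 10 at 114.

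Among the ligands, Lif was the gene with the largest fold change and the lowest level. It stood at 0.224, 0.869, 0.333 and 0.369 normalized CPM in RA-PBS animals 1 to 4. In O2-PBS animals 5 to 8 it stood at 9.1, 0.938, 1.24 and 1.55, and in O2-IC100 animals 9 to 12 at 0.373, 0.505, 0.912 and 0.392. Animal 5 was far above every other retina, and the lowest O2-PBS retina was only just above the highest of the other groups. These levels rest on 4 to 28 counts in every library but that of animal 5, which had 151. Lif rose in O2-PBS by 2.79 ± 0.74 on the log2 scale (SE, adjusted p = 0.0344), or 6.9-fold, and with all 12 animals it was 2.80 with an adjusted p of 0.222. Without animal 5 the difference was 1.44 with an adjusted p of 0.146, and without RA-PBS animal 1 it was 2.57 with an adjusted p of 0.101. Its log2 fold change with IC100 was -2.47 ± 0.78 (adjusted p = 0.165), and its 95% interval ran from -4.16 to -0.78. It passed under 2 of 24 alternatives, without RA-PBS animal 4 (adjusted p = 0.0967) and with DESeq2 on all 12 animals (adjusted p = 0.0973). The rise of Lif in O2-PBS no longer passed with a Y-linked covariate (2.44, adjusted p = 0.155) or in limma voom (2.19, adjusted p = 0.144).

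The other ligands had smaller fold changes and did not pass. Cntf, ciliary neurotrophic factor, stood at 2.08, 2.41, 2.89 and 5.48 CPM in RA-PBS, at 4.04, 5.37, 4.24 and 4.16 in O2-PBS and at 4.15, 33.1, 4.75 and 5.1 in O2-IC100. The RA-PBS retina with the highest value was animal 4, the one with the myelin markers, and animal 10 was highest of all. Without animal 4 the difference between O2-PBS and RA-PBS passed (log2 fold change 0.86, adjusted p = 0.0165), whereas with it the value was 0.47 ± 0.27 (adjusted p = 0.337). With the crystallin level as a covariate it passed as well (1.02, adjusted p = 0.0682), in a fit that rests largely on RA-PBS animal 1, the room-air retina low in crystallins. Whether Schwann cell RNA accounts for the level in animal 4 was not tested. Cntf lies within the span of Zfp91 on the same strand in GENCODE M21, so its counts are uncertain. Clcf1 stood at 4.09, 3.82, 3.33 and 2.58 CPM in RA-PBS, at 5.79, 3.39, 2.94 and 4.1 in O2-PBS and at 2.66, 2.9, 3.5 and 1.96 in O2-IC100. All 3 groups overlapped, with log2 fold changes of 0.23 ± 0.25 for O2-PBS against RA-PBS (adjusted p = 0.65) and -0.56 ± 0.28 for O2-IC100 against O2-PBS (adjusted p = 0.28).

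Of the receptor subunits, Osmr rose and the 2 that make up the LIF receptor did not pass. Osmr stood at 4.88, 8.69, 12.8 and 8.69 CPM in RA-PBS, at 48.5, 15.5, 19.1 and 19.1 in O2-PBS and at 10.6, 177, 11.5 and 15.5 in O2-IC100. Every O2-PBS retina was above every RA-PBS retina, and animal 10 was above all. The rise in O2-PBS was 1.54 ± 0.37 on the log2 scale (adjusted p = 0.0265), or 2.91-fold, and it did not pass with all 12 animals (1.54, adjusted p = 0.88) or with the Y-linked covariate (1.40, adjusted p = 0.111). Against O2-PBS, the IC100 retinas gave -1.01 ± 0.39 (adjusted p = 0.222) without animal 10 and 1.06 ± 0.84 with it (adjusted p = 0.506), so the direction for Osmr turned on that retina.

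Lifr, the LIF receptor subunit, stood at 77.3, 114, 115 and 95.5 CPM in RA-PBS, at 120, 125, 111 and 105 in O2-PBS and at 92.2, 36.1, 93.6 and 92.9 in O2-IC100. Il6st, encoding gp130, stood at 90.1, 118, 119 and 83.8 CPM in RA-PBS, at 181, 123, 124 and 118 in O2-PBS and at 90.4, 156, 90.9 and 88.1 in O2-IC100. For both genes the 3 O2-IC100 retinas other than animal 10 were close together and below all 4 O2-PBS retinas, while RA-PBS overlapped both. Lifr had a log2 fold change of 0.20 ± 0.11 in O2-PBS against room air (adjusted p = 0.325) and of -0.30 ± 0.12 with IC100 (adjusted p = 0.222). Il6st differed by 0.41 ± 0.14 between O2-PBS and RA-PBS (adjusted p = 0.0992), a 1.33-fold difference that is under the 1.5-fold threshold. With IC100 the log2 fold change of Il6st was -0.59 ± 0.15 (adjusted p = 0.113), and it passed under 7 of 24 alternative settings.

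The kinase gene Jak2 did not pass in any comparison. It stood at 48.7, 42.2, 40.5 and 49.7 CPM in RA-PBS, at 46.9, 44.6, 47.6 and 44.5 in O2-PBS and at 44.7, 26, 49.3 and 47.1 in O2-IC100. Apart from animal 10 the groups lay within one another. The 95% interval of its log2 fold change was -0.17 to 0.20 for O2-PBS against RA-PBS and -0.15 to 0.25 for O2-IC100 against O2-PBS, both inside a 1.5-fold change.

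Stat3, the transcription factor of the pathway, gave the steadiest difference of the 9 genes. It stood at 66.9, 69.9, 80.5 and 56.9 CPM in RA-PBS, at 243, 124, 126 and 125 in O2-PBS and at 71.9, 114, 77.2 and 76.4 in O2-IC100. The 3 O2-PBS retinas other than animal 5 were within a narrow range, and no retina of another group reached them. Stat3 rose in O2-PBS by 1.17 ± 0.19 on the log2 scale (adjusted p = 0.00324), or 2.25-fold, and passed under 24 of 24 alternatives, all 12 animals included (adjusted p = 0.0703). Without animal 5 the rise was 0.87. In O2-IC100 it was lower than in O2-PBS, with a log2 fold change of -1.02 ± 0.21 (adjusted p = 0.0659), or 2.03-fold, and the value was -0.87 with an adjusted p of 0.287 with all 12 animals. This call was lost when animal 9, 11 or 12 was left out (adjusted p = 0.262, 0.239 and 0.259), each time with a log2 fold change between -0.99 and -1.04, and also with the Y-linked covariate (adjusted p = 0.13) and without a filter on low counts (-1.04, adjusted p = 0.113). Stat3 in O2-IC100 differed from RA-PBS by 0.15 ± 0.21 (adjusted p = 0.776), with a 95% interval of -0.31 to 0.60. Among retinas with high Y-linked levels, Stat3 was at 125 CPM in O2-PBS animal 8, against 66.9 to 80.5 in RA-PBS animals 1 to 3 and 71.9 to 77.2 in O2-IC100 animals 9, 11 and 12. Among those with low Y-linked levels it was at 124 to 243 in O2-PBS animals 5 to 7, against 56.9 in RA-PBS animal 4. O2-PBS animal 8 and RA-PBS animal 4, the retina with high myelin markers, each stood alone for their group here. No test was therefore made within either set.

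Socs3, the feedback inhibitor, stood at 2.52, 1.88, 4.44 and 4.05 CPM in RA-PBS, at 26.2, 8.71, 11.9 and 8.87 in O2-PBS and at 4.9, 17.4, 2.78 and 5.39 in O2-IC100. The O2-PBS retinas were all above both other groups except for animal 10, and animal 5 was again the highest. Socs3 rose in O2-PBS by 2.10 ± 0.38 on the log2 scale (adjusted p = 0.00594), or 4.3-fold, and passed under 23 of 24 alternatives. The exception was the fit of all 12 animals (adjusted p = 0.222). With IC100 the log2 fold change was -1.65 ± 0.40 (adjusted p = 0.107) without animal 10 and -0.89 ± 0.55 with it (adjusted p = 0.399), and it passed under 10 of 24 alternatives. Socs3 in O2-IC100 differed from room air by 0.45 ± 0.42 (adjusted p = 0.648). In whole retinas a change in the number of cells that carry a transcript and a change in the RNA of each cell cannot be told apart, and this holds for every gene here.

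**Figure D2:**
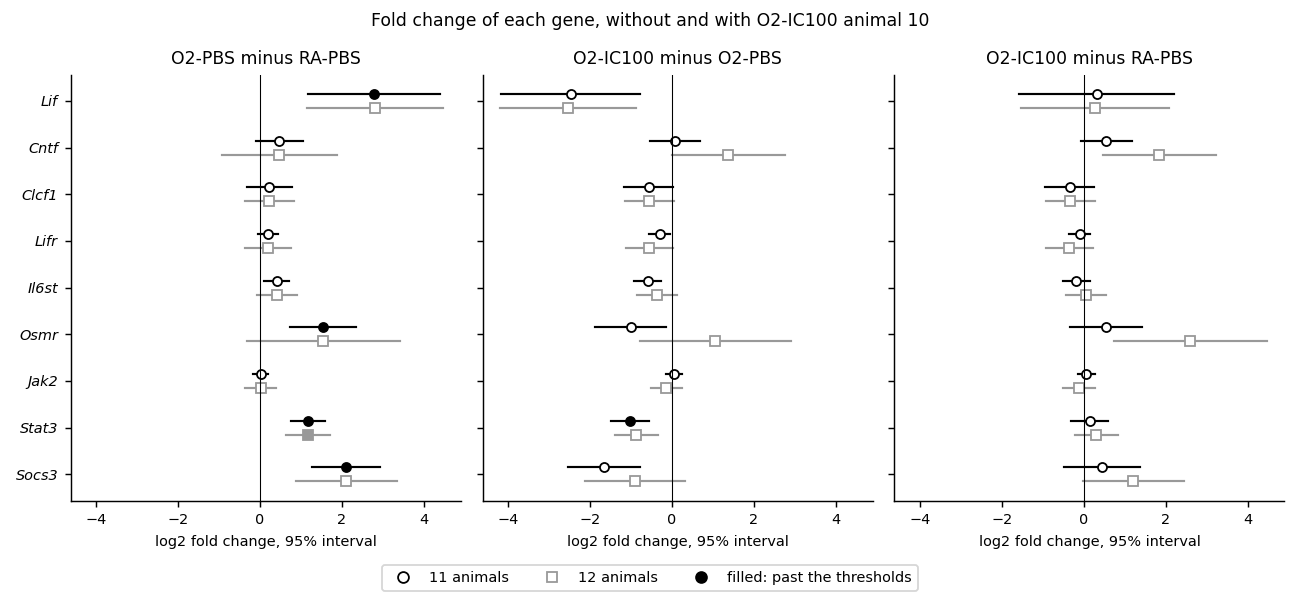
Log2 fold change of each gene with its 95% interval in the 3 comparisons, in the fit of 11 animals (black circles) and of 12 animals (grey squares). Filled symbols passed the thresholds, which in the first comparison were Lif, Osmr, Stat3 and Socs3 with 11 animals and Stat3 alone with 12.

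The order of the levels was compared per kilobase of transcript, in mean CPM per kb. In RA-PBS retinas Il6st (11.8), Stat3 (11.3), Lifr (10.4) and Jak2 (9.01) were highest. They were followed by Cntf (2.99), Clcf1 (1.87), Osmr (1.59) and Socs3 (1.26), and Lif (0.111) was lowest. Neighbours in this order overlapped between animals except at the steps from Jak2 to Cntf and from Socs3 to Lif. In O2-PBS retinas the order was Stat3 (25.6), Il6st (15.7), Lifr (12), Jak2 (9.12), Socs3 (5.45), Osmr (4.66), Cntf (4.15), Clcf1 (2.2) and Lif (0.797). Socs3 and Osmr thus stood before Cntf and Clcf1, which they followed in room air, although Socs3, Osmr and Cntf overlapped one another and Osmr overlapped Clcf1 as well. In O2-PBS Stat3 also overlapped Il6st, Jak2 overlapped Socs3, and Clcf1 overlapped Lif. In the 3 O2-IC100 retinas the order was Stat3 (12.4), Il6st (10.3), Lifr (9.62), Jak2 (9.34), Cntf (4.35), Osmr (2.28), Socs3 (1.71), Clcf1 (1.47) and Lif (0.139), where Lifr overlapped Jak2 and Socs3 overlapped Osmr and Clcf1.

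The rest of the pathway was read from 4 lists, which were chosen with earlier results of these data known. The first held 12 other gp130 cytokines and receptor subunits, of which 8 were tested and none passed in either comparison with O2-PBS by edgeR, DESeq2 or limma voom. In edgeR 1 had an unadjusted p under 0.05 in O2-PBS against RA-PBS and 0 with IC100. Oncostatin M (Osm), the ligand for Osmr, was at or under 0.168 CPM in all retinas, and Il6 at or under 0.0603 CPM, so both were too low to be tested. Il27 and Il27ra were not tested either. Cntfr, the CNTF receptor, differed by -0.42 ± 0.11 between O2-PBS and RA-PBS (adjusted p = 0.0373), under the 1.5-fold threshold. The median log2 fold change of the 8 genes was -0.14.

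Of 9 other JAK and STAT genes 8 were tested, and 2 rose in O2-PBS, where 4.09% of all tested genes rose, and 1 was lower with IC100, where 0.731% were. Jak3, a kinase best known from lymphoid cells, stood at 4.04, 3.86, 6.05 and 3 CPM in RA-PBS, at 20.2, 12.7, 13 and 11.8 in O2-PBS and at 6.65, 14, 6.29 and 8.68 in O2-IC100. Its O2-PBS values were above those of all RA-PBS retinas and of O2-IC100 animals 9, 11 and 12. Jak3 rose by 1.76 ± 0.22 on the log2 scale (adjusted p = 4.79e-04), also with all 12 animals (adjusted p = 0.0379). It was lower with IC100 (log2 fold change -0.98 ± 0.23, adjusted p = 0.0977), a call lost with all 12 animals (adjusted p = 0.289) and when any of O2-PBS animals 5 to 8 or O2-IC100 animals 9, 11 and 12 was left out, with values from -0.79 to -1.14. It was lost with the Y-linked covariate (-1.04, adjusted p = 0.136) and in a fit without robust estimation (adjusted p = 0.109) too. Stat6, the factor downstream of interleukin-4, rose by 0.63 ± 0.13 (adjusted p = 0.0114), which did not pass with all 12 animals (0.63, adjusted p = 0.954) or with the crystallin covariate (0.36, adjusted p = 0.114), and without RA-PBS animal 2 its 0.57 was under the fold threshold. The list's median was 0.23 in O2-PBS against RA-PBS and -0.21 with IC100. None of 12 further SOCS, PIAS and phosphatase genes passed in either comparison with O2-PBS by edgeR, DESeq2 or limma voom, with 1 and 2 genes at an unadjusted p under 0.05 in edgeR, and their medians were 0.03 and -0.008. Socs1, the closest relative of Socs3 in function, differed by -0.008 ± 0.57 between O2-PBS and RA-PBS.

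A list of 25 genes known to respond to STAT3 was read last. Of 24 tested (Ccl2 was too low), 11 rose in O2-PBS and none fell, with a median log2 fold change of 1.00, where 4.09% of all tested genes rose. Because this list too was chosen with earlier results known, its shares and medians, here and below, are a description and not a test. Edn2, encoding endothelin 2, stood at 0.617, 0.29, 1.94 and 0.79 CPM in RA-PBS, at 25.4, 27.9, 40.7 and 29 in O2-PBS and at 7.72, 10.6, 7.97 and 10.3 in O2-IC100. The groups were fully separated, with O2-IC100 in between and animal 10 among its own group. Edn2 rose by 5.09 ± 0.37 (adjusted p = 1.14e-05) in O2-PBS, was lower with IC100 (log2 fold change -1.81 ± 0.29, adjusted p = 0.0343), and was still above RA-PBS by 3.28 ± 0.39 (adjusted p = 0.00309).

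Fgf2, a survival factor for photoreceptors, showed the same order. It stood at 18.1, 17.3, 28.6 and 16 CPM in RA-PBS, at 121, 98.2, 113 and 82.7 in O2-PBS and at 46.7, 57.7, 52.9 and 51.1 in O2-IC100. Fgf2 rose by 2.37 ± 0.17 (adjusted p = 1.14e-05) and was lower with IC100 (log2 fold change -1.03 ± 0.17, adjusted p = 0.0343). Bcl3, an IκB-family regulator, stood at 0.393 to 0.632 CPM in RA-PBS, at 4.05 to 8.56 in O2-PBS and at 1.01, 5.81, 1.15 and 1.81 in O2-IC100. It rose by 3.54 ± 0.33 (adjusted p = 6.83e-05) and was lower with IC100 (log2 fold change -2.21 ± 0.32, adjusted p = 0.0262), with animal 10 inside the O2-PBS range. Ccnd1, encoding cyclin D1, rose by 0.68 ± 0.11 (adjusted p = 0.00269) and was lower with IC100 (log2 fold change -0.66 ± 0.12, adjusted p = 0.0381), but with animal 10, at 206 CPM against 24.3 to 28.1 in the others of its group, the sign turned to 0.76.

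The remaining risers were the immediate early factors Fos (0.97 ± 0.20, adjusted p = 0.01), Junb (1.40 ± 0.24, adjusted p = 0.00394) and Myc (1.74 ± 0.46, adjusted p = 0.032), and Cebpd (2.13 ± 0.31, adjusted p = 0.00247), a factor of the acute-phase response. Beside them rose the protease inhibitor A2m (2.09 ± 0.28, adjusted p = 0.0013), the adhesion molecule Icam1 (1.03 ± 0.25, adjusted p = 0.0207) and the vascular growth factor Vegfa (1.19 ± 0.09, adjusted p = 1.14e-05). Vegfa is also a classical target of hypoxia signaling, and a part of hypoxia in its rise was not tested. Hif1a, another gene of the list, was at 561 to 657 CPM in RA-PBS and 556 to 599 in O2-PBS. These are RNA levels and do not measure the protein. The rise of Myc was lost without animal 5 (adjusted p = 0.111). Gfap, the glial filament, did not pass (0.58 ± 0.93, adjusted p = 0.768), and RA-PBS animal 4 was at 288 CPM against 10.4 to 40.9 in the other RA-PBS retinas and 89.1 to 187 in O2-PBS. Serpina3n was likewise at 24.1 CPM in animal 4, against 0.112 to 4.61 in its group and 17.3 to 50.5 in O2-PBS.

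With IC100, 4 of the 24 genes were lower than in O2-PBS (Edn2, Fgf2, Bcl3 and Ccnd1) and none higher, with a median of -0.62, where 0.731% of all tested genes were lower. These 4 calls were lost with all 12 animals, with the Y-linked covariate, and when animal 9, 11 or 12 was left out, which leaves 2 O2-IC100 retinas, and 2 calls were left without O2-PBS animal 5. With all 12 animals and with the Y-linked covariate the log2 fold changes were -1.75 and -1.77 for Edn2, -0.99 and -1.01 for Fgf2, -1.41 and -1.67 for Bcl3 and 0.76 and -0.60 for Ccnd1. Against RA-PBS, 4 genes were still higher in O2-IC100 (Edn2, Fgf2, A2m and Vegfa), with a median of 0.26, where 0.947% of all tested genes were higher. The count was 3 to 7 with 1 animal left out, with 7 without RA-PBS animal 4. The call of A2m was lost in 10 of 23 alternatives, with an adjusted p of 0.237 without RA-PBS animal 2 and of 0.316 without O2-IC100 animal 12. With all 12 animals 6 genes rose in O2-PBS (Bcl3, Junb, Cebpd, Edn2, Fgf2 and Vegfa), none passed with IC100 and none passed between O2-IC100 and RA-PBS in edgeR, with 6 and 10 genes at an unadjusted p under 0.05, while DESeq2 on all 12 animals called 9, 2 and 3 genes.

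**Figure D3:**
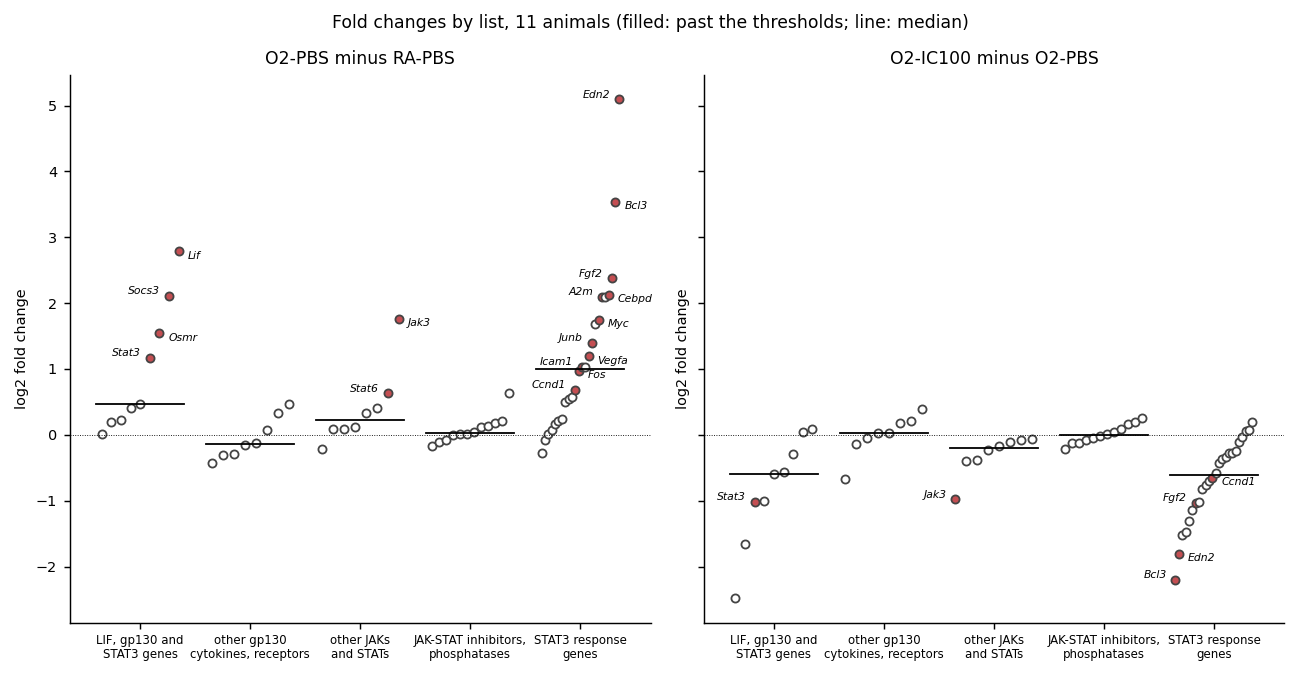
Log2 fold changes in the fit of 11 animals for the 9 genes and the 4 further lists, for O2-PBS against RA-PBS (left) and O2-IC100 against O2-PBS (right). Each point is a gene, filled where it passed the thresholds, and lines are list medians. The STAT3 response genes spread upward with a median of 1.00 on the left and downward with a median of -0.62 on the right, while the medians of the inhibitors are 0.03 and -0.008, with 1 gene at 0.64 on the left.

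Markers of several cell types differed between the groups as well. The summed level of 7 endothelial markers was 162 to 242 CPM in RA-PBS, 356 to 401 in O2-PBS and 266 to 293 in the 3 O2-IC100 retinas (38.5 in animal 10), and 6 of them rose in O2-PBS and 2 were lower with IC100, beside 4.09% and 0.731% of all tested genes. The 6 pericyte markers summed to 146 to 182, 322 to 455 and 283 to 343 CPM, with 5 that rose and 3 that were lower with IC100. With all 12 animals 1 endothelial and 1 pericyte marker rose, and none of either passed with IC100. The 7 microglia markers summed to 25 to 53.3, 52.9 to 67 and 63.2 to 80.2 CPM (327 in animal 10), with 3 that rose and none that was lower. With all 12 animals no microglia marker passed in either comparison with O2-PBS. Müller glia markers, of which there were 8, summed to 2890 to 4370, 2390 to 2700 and 2810 to 3030 CPM. In O2-PBS 1 of them rose and 2 fell, where 4.09% and 2.18% of all tested genes did. With IC100 1 Müller glia marker was higher than in O2-PBS, where 0.216% of all tested genes were, and none passed with all 12 animals. The part of these cell types in the levels of the pathway genes was not tested.

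The tissue itself read as retina in 11 of 12 libraries. The 7 rod markers summed to between 33900 and 40300 CPM there, and none of the 7 rod or 6 cone markers passed in any comparison. In O2-PBS 1 of 6 bipolar and 1 of 6 ganglion cell markers fell, where 2.18% of all tested genes did. None of 4 astrocyte or 6 amacrine markers passed between O2-PBS and RA-PBS. With IC100 1 astrocyte marker was lower than in O2-PBS, where 0.731% of all tested genes were. None of these calls remained with all 12 animals. The 7 pigment epithelium markers summed to 513 to 610 CPM in RA-PBS, 305 to 405 in O2-PBS and 468 to 487 in O2-IC100 (6490 in animal 10). In O2-PBS 4 of them fell, beside 2.18% of all tested genes, and none passed with all 12 animals. Rlbp1 is on this list and on that of Müller glia, with means of 426 CPM in RA-PBS, 280 in O2-PBS and 377 in O2-IC100 without animal 10. Blood leukocyte markers summed to at most 3.44 CPM outside animal 10 (4.92), with at most 2 of 6 genes at 0 in any retina. The 19 lens genes summed to 32.1 to 43400 CPM in RA-PBS and 28.5 to 146 in O2-PBS. With the crystallin level as a covariate, Osmr, Stat3 and Socs3 still passed between O2-PBS and RA-PBS, Cntf passed and Lif did not (2.71, adjusted p = 0.187). Within groups this covariate varied mainly between RA-PBS animal 1 (0.00315% of counts) and RA-PBS animals 2 to 4 (1.25% to 4.5%). O2-PBS retinas were at most at 0.0158%, so these adjusted differences rest largely on RA-PBS animal 1.

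**Figure D4:**
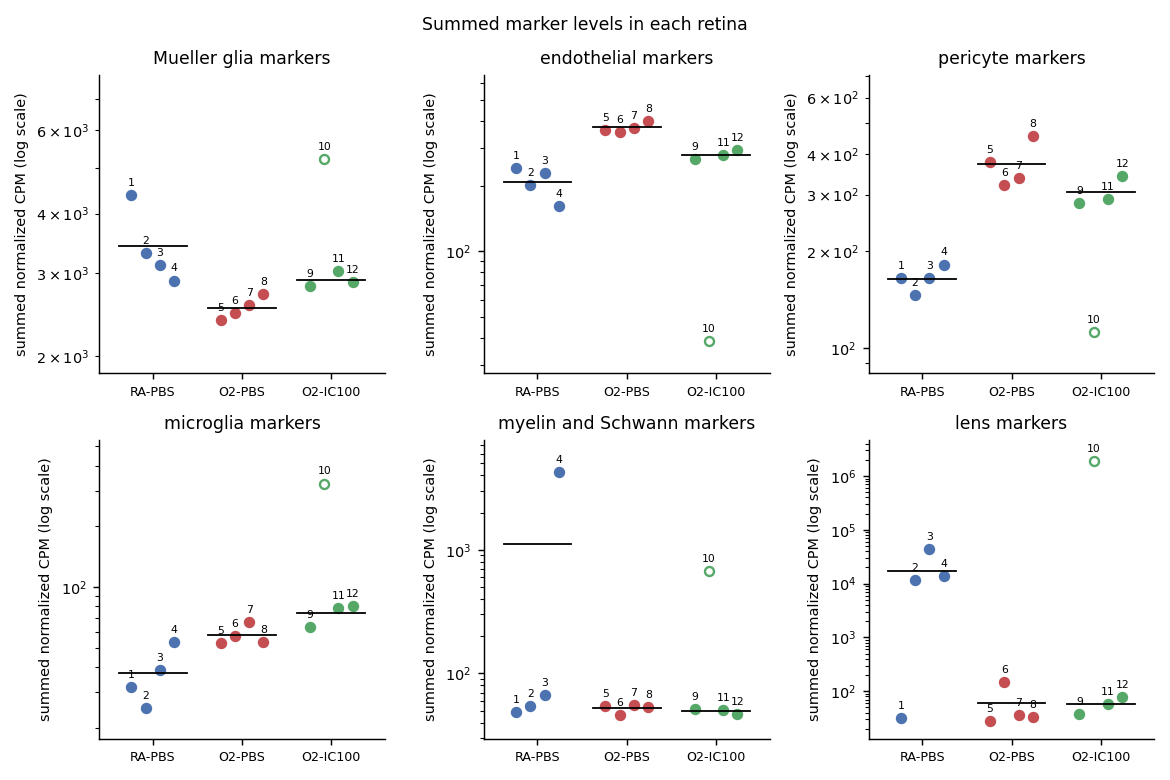
Summed normalized CPM (log axis) of 6 marker lists in each retina, numbered by animal, with animal 10 drawn open and lines at group means without it. Endothelial sums were highest in the 4 O2-PBS retinas, pericyte sums of O2-PBS (322 to 455) overlapped those of O2-IC100 (283 to 343), and the lens sum was highest in animal 10, where normalization rescales a small non-lens part.

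The genes whose levels followed these most closely over the 11 retinas are given as a description, with Pearson's r of log2 CPM, among 14822 genes. For Stat3 they were Slc12a4 (0.974), Klhl29 (0.970), Sh2b3 (0.966), Kit (0.965) and Maff (0.964). For Socs3 they were Zcchc24 (0.982), Gadd45b (0.964), Ipo5 (0.962), Cebpd (0.954) and Flnc (0.951). Osmr was followed by Ankrd28 (0.969), Tgfb1i1 (0.965), Csf2rb (0.963), Map4k4 (0.963) and Ipo5 (0.962). Lif was followed by Jakmip3 (0.942), Ppard (0.940), Cttnbp2nl (0.930), Etv6 (0.926) and Dclk3 (0.922). All these correlations share the 3 groups and the high values of animal 5.

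**Figure D5:**
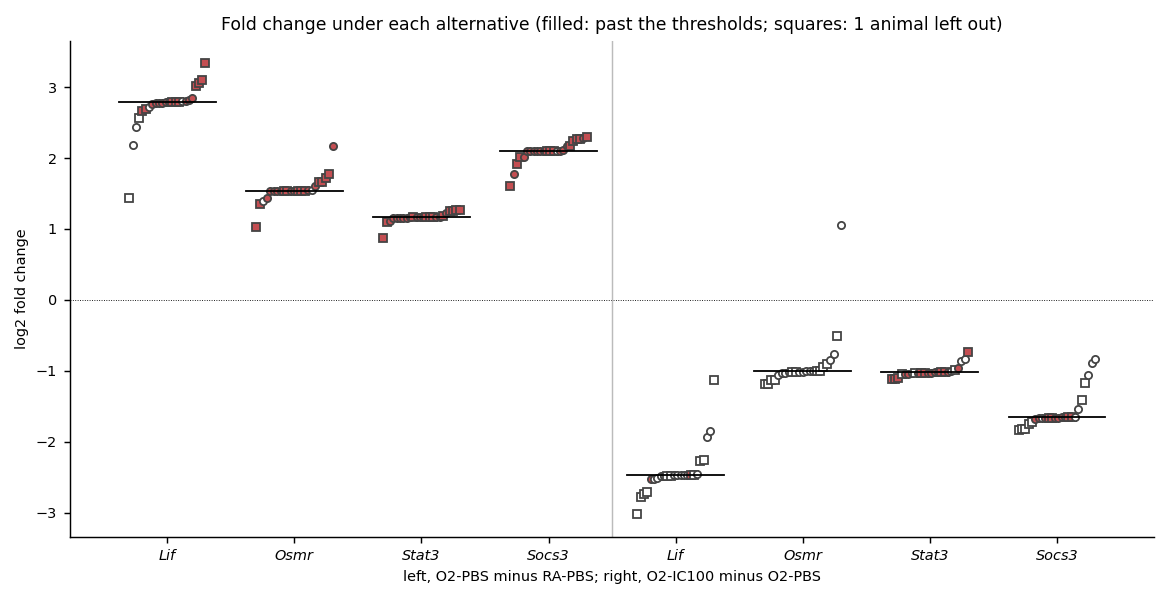
Log2 fold change of Lif, Osmr, Stat3 and Socs3 under 24 alternative settings (23 for Osmr), for O2-PBS against RA-PBS (left) and O2-IC100 against O2-PBS (right). Squares are fits with 1 animal left out, circles are other settings, filled symbols passed the thresholds and lines are the values reported. On the left no value falls below 0.87, and on the right Osmr turns to 1.06 when animal 10 is included.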

How the data were processed

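RNA was measured in whole retinas of 12 animals, 4 in each of the RA-PBS, O2-PBS and O2-IC100 groups, as given by the labels. The authors pseudoaligned 150 bp paired-end reads to the GRCm39 transcriptome (Ensembl release 104) with Kallisto and summed transcripts per gene with tximport, and the deposited table holds expected counts, of which 42.2% are not whole. Values were rounded, and edgeR 4.0.16 in R 4.3.3 was used (TMM, filterByExpr, robust quasi-likelihood fit of the 3 groups, two-sided F test, no covariate). The authors' thresholds were kept. O2-IC100 animal 10 was left out, with the fit of all 12 animals beside it. The 9 genes, the 4 pathway lists, the 14 marker lists, the Y-linked list, the tests and the exclusion of animal 10 were chosen with earlier results of these data known. Named are the 9 genes, other pathway genes past the thresholds in a comparison with O2-PBS, and counted exceptions such as genes too low to test or under the fold threshold. Gfap, Serpina3n, Hif1a and Socs1 were named after their values were seen.

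Levels are CPM scaled by TMM over 12 animals, and lengths are those of the longest coding transcript in GENCODE M21 (GRCm38). Symbols were found for 35374 of the 36131 Ensembl identifiers. Adjusted p-values are Benjamini-Hochberg values of edgeR over all tested genes unless another tool is named, ± is the SE of a log2 fold change, and SE come from the fit. Replicates are separate animals. DESeq2 1.42.0, the tool of the submitters' processing notes, limma 3.58.1 (voom), other normalizations and filters, covariates and leaving out each animal were tried as alternatives. The procedure was tested on simulated data. Library totals of 14906970 to 24437916 counts limit precision most for Lif.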

Additional observations from a re-analysis of the deposited data

Results flagged for a closer look

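In groups of 4 animals, a retina was flagged when its gap to the nearest other retina exceeded Dixon's 95% critical share of the group's range, which chance alone does in about 1 of 20 groups. Of 27 gene and group pairs of the 9 genes, 10 were flagged, and 5 of these were O2-IC100 animal 10. Animal 10 was highest for Cntf (33.1 CPM), Il6st (156), Osmr (177) and Stat3 (114) and lowest for Lifr (36.1). O2-PBS animal 5 was highest for Lif (9.1 CPM), Il6st (181), Osmr (48.5) and Stat3 (243), and O2-PBS animal 6 was highest for Cntf (5.37).

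Of 39 pairs of the 13 other pathway genes named, 8 were flagged. Animal 10 was highest for Stat6 (35 CPM), Bcl3 (5.81), Cebpd (25.1), A2m (674) and Ccnd1 (206). Animal 5 was highest for Jak3 (20.2 CPM) and Junb (55.8), and RA-PBS animal 3 was highest for Fgf2 (28.6). The cause of the high values in animal 5 was not tested. Rod genes took 3.82% of its counts and crystallins 0.00303%, the lowest share of the 12 retinas.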

How the results depend on the processing

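No paired analysis was possible because the animal numbers 1 to 12 are not shared between groups. Of 24 alternatives, 11 left out 1 animal. In O2-PBS against RA-PBS the 4 members became 1 with all 12 animals and 2 with the Y-linked covariate, and 3 to 5 when 1 animal was left out (3 without RA-PBS animal 1 or O2-PBS animal 5, where Lif was lost, and 5 without RA-PBS animal 4, where Cntf was gained). Over all genes, 1046 calls (682 higher, 364 lower) became 133 (129 and 4) with all 12 animals, 412 (350 and 62) with DESeq2 on all 12, 3257 with the crystallin covariate, and 784 to 1343 with 1 animal left out.

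With IC100 against O2-PBS the 1 member became 0 with all 12 animals, without a filter on low counts or with the Y-linked covariate, 2 with RLE size factors, with crystallin genes removed or with a filter of 1 CPM in 3 animals, 3 with DESeq2, with only the 2 groups compared or with the crystallin covariate, and 0 to 4 with 1 animal left out (0 without animal 9, 11 or 12, and 3 or 4 without any RA-PBS animal). Over all genes, 158 calls (36 higher, 122 lower) became 0 with all 12 animals, 383 with DESeq2, 789 with only the 2 groups, 36 (13 and 23) with the Y-linked covariate, 348 with the crystallin covariate, and 0 to 432 with 1 animal left out. Ccnd1 reversed to 0.76 with all 12 animals.

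Between O2-IC100 and RA-PBS the 0 members became 1 (Cntf) with the crystallin covariate, and 0 to 1 with 1 animal left out. Over all genes, 261 calls (158 higher, 103 lower) became 0 with all 12 animals, 567 (277 and 290) with DESeq2, 18 (14 and 4) with only the 2 groups, 420 (207 and 213) with the Y-linked covariate, 1768 with the crystallin covariate, and 21 to 925 with 1 animal left out. With library size alone as the scaling they were 286 (213 and 73). The cause of these changes was not tested. Counts limit Lif, with 4 to 28 in every library but 1.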
